A study of Mus musculus with 2 samples.

Results

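The 39 genes described here encode the enzymes and carriers of the mouse urea cycle and of amino acid breakdown in liver. They were taken by gene symbol from both deposited count matrices, where each of the 39 symbols occurred once among 33696 gene identifiers. The matrices hold single-cell RNA counts of liver from one library labelled SLC22A18-/- (knockout) and one labelled SLC22A18+/+ (wild type), each described as one sample of mouse liver tissue with no number of animals given, and the comparison asks how liver cells differ when the transporter gene Slc22a18 is deleted. Age, sex, strain and the deleted exons are not stated in the labels, and with 1 library per genotype the animal, the preparation and the genotype cannot be told apart. No test between genotypes was possible. Every interval below is an exact 95% interval that covers counting error only.

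After filtering, 11104 cells of the knockout-labelled library and 12002 cells of the wild-type-labelled library were kept, with medians of 5848 and 5344.5 unique molecular identifiers (UMIs, each standing for 1 captured RNA molecule) per cell. Hepatocytes numbered 3055 in the knockout-labelled library and 3172 in the wild-type-labelled one, and their summed counts were 27152494 and 28073850 UMIs. The libraries shared 38 cell barcodes. Slc22a18 itself did not separate them: knockout-labelled hepatocytes held 1441 UMIs, or 53.1 CPM, against 1632 UMIs or 58.1 CPM in wild-type-labelled hepatocytes, a ratio of 0.913 (0.850 to 0.981). Since the kit captures RNA 3′ ends and the deleted part of the gene is not given, this neither checks the genotype nor replaces the label, and the libraries are called by their labels throughout. CPM, the unit of every level here, is the summed UMIs of a gene over all UMIs of that cell class and library, times 1e6, and 3′-end counts need no division by transcript length.

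Amino acid breakdown releases ammonia, which the periportal hepatocytes turn into urea, while a rim of hepatocytes around the central vein traps what escapes as glutamine. The liver lobule is therefore a classical case of metabolic zonation, in which Glul, the glutamine synthetase, marks the cells nearest the central vein and the urea cycle, histidine and serine enzymes are higher toward the portal vein. Hormones of fasting, among them glucagon and glucocorticoids, raise many of these genes in liver.

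Promoter sequences of RefSeq (build GRCm38.p6, from 250 bases before to 50 bases after the start of transcription) were matched for 29 of the 39 genes. Those below are the 3 genes with the steepest pericentral profiles and Hal, a periportal gene that holds the same motif letters as Slc1a2. Capitals mark matches on either strand to the TCF/LEF letters CTTTGAT and the C/EBP letters TTGCNNAA, which do not overlap each other. Slc1a2, the glutamate transporter GLT-1, lies at chr2:102706188-102706487 on the plus strand, at a start inside the annotated gene. Glul is at chr1:153899679-153899978 on the plus strand, Oat, the ornithine aminotransferase, at chr7:132576349-132576648 on the minus strand, and Hal, the histidine ammonia lyase, at chr10:93488518-93488817 on the plus strand.
Slc1a2: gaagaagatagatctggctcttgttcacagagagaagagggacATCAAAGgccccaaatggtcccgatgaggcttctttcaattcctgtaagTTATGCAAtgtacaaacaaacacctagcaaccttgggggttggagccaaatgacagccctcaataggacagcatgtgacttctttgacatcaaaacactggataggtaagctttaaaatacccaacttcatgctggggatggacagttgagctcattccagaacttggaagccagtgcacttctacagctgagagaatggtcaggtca
Glul: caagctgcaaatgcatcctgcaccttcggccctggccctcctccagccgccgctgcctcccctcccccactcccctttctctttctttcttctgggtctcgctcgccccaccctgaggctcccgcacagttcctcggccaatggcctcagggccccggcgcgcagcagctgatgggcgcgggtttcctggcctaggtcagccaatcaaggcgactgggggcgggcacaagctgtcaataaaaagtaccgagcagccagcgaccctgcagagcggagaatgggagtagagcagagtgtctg
Oat: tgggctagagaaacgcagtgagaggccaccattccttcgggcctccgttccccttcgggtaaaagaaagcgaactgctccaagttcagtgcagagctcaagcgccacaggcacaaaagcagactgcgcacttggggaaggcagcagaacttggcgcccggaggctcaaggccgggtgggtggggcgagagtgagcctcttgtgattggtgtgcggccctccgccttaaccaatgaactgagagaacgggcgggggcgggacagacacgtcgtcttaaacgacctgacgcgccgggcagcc
Hal: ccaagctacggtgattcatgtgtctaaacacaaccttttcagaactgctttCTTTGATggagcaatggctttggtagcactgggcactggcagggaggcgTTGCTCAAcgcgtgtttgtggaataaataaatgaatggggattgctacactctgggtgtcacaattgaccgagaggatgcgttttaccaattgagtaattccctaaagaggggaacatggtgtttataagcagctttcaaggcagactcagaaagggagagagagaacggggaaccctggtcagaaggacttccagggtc
In Slc1a2 the TCF/LEF match starts 207 bases and the C/EBP match 158 bases before the start of transcription, and in Hal they start 199 and 150 bases before it. Slc1a2 and Hal thus carry the same pair of letters at similar positions and have opposite zonal profiles. Glul and Oat hold neither in this window.
Over all 32851 promoters, CTTTGAT occurred in 3.73% and TTGCNNAA in 10.8%. Among the 29 matched genes, CTTTGAT occurred in 4 (Haao, Hal, Nags and Slc1a2) and TTGCNNAA in 4 (Aass, Hal, Hgd and Slc1a2). The glucocorticoid receptor motif TGTTCT, present in 19.0% of all promoters, was found in 3 of the 29 (Agxt, Haao and Kmo), and the cAMP response element TGACGTC, present in 3.21%, in none. These are matches of letters and not measured binding.

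Hepatocytes carried most of the expression of the 39 genes. Together they made up 2.39% of all UMIs of knockout-labelled hepatocytes and 2.44% in wild-type-labelled hepatocytes, against 0.154% and 0.155% in liver endothelial cells. Cps1, the mitochondrial carbamoyl phosphate synthetase that starts the urea cycle, was the most abundant, with 113168 UMIs or 4168 CPM in knockout-labelled hepatocytes and 109723 UMIs or 3908 CPM in wild-type-labelled hepatocytes. Sdsl, a homologue of the serine dehydratase Sds, was the least abundant, with 454 UMIs or 16.7 CPM and with 554 UMIs or 19.7 CPM in the knockout-labelled and wild-type-labelled cells. All 39 genes passed the minimum of 50 summed UMIs.

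**Figure D1:**
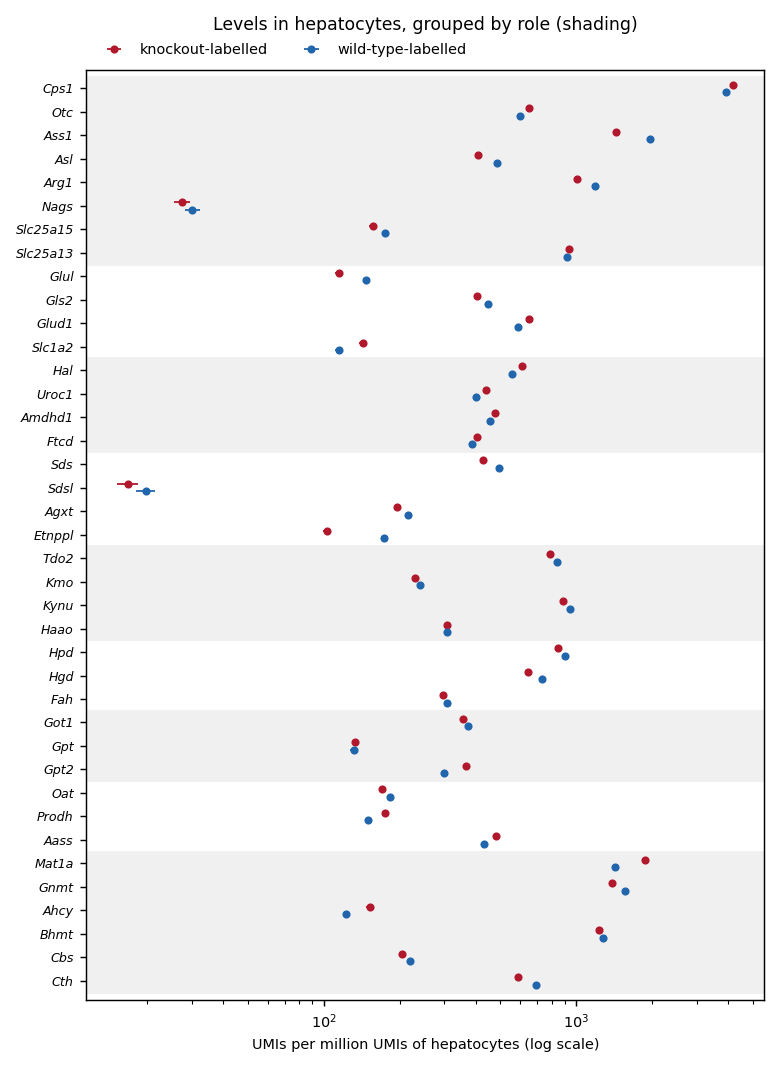
Level of each of the 39 genes in hepatocytes, in CPM on a log scale, with exact 95% counting intervals, for the knockout-labelled (red) and wild-type-labelled (blue) library; shaded bands group genes by role. Levels span from 16.7 CPM for Sdsl to 4168 CPM for Cps1 in the knockout-labelled library, and the widest gap between the libraries is that of Etnppl.

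Between the libraries, the hepatocyte levels of the 39 genes differed little in size. None of the 39 reached a 2-fold ratio in either direction, where 1.46% of the 14778 genes measured in hepatocytes did, 0.697% higher and 0.765% lower in the knockout-labelled library. At 1.5-fold 1 gene was lower in the knockout-labelled library and none was higher, where 2.33% of all measured genes were lower and 2.96% were higher, 5.28% in all. The median log2 ratio of the knockout-labelled over the wild-type-labelled library was -0.066 over the 39 genes and 0.048 over all measured genes. Of the 39, 24 had a ratio below 1, or 61.5%, as did 41.1% of all measured genes. These pooled ratios also depend on the mix of clusters. Cluster 16, described below and richest in these genes, held 18.6% of knockout-labelled and 22.6% of wild-type-labelled hepatocytes. With the same cluster weights in both libraries, Agxt, Bhmt, Cbs, Fah, Got1, Haao, Hpd and Oat turned above 1. Slc1a2 and Slc25a13 turned below 1. Without cluster 16, 23 of the 39 had a ratio below 1.

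Etnppl, which breaks down phosphoethanolamine, was the gene past 1.5-fold. It had 2793 UMIs or 102.9 CPM in knockout-labelled hepatocytes, against 4853 UMIs or 172.9 CPM in wild-type-labelled hepatocytes, a ratio of 0.595 (0.568 to 0.624). The knockout-labelled level was the lower one in each of 5 ranges from the portal to the central end of the lobule, with ratios of 0.579 to 0.659. It was not lower in every hepatocyte cluster: of 6 clusters, 5 had ratios of 0.45 to 0.771 and the cluster numbered 16, described below, had 133.7 CPM in the knockout-labelled library against 101.0 CPM in the wild-type-labelled one, a ratio of 1.33 (1.16 to 1.51).

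Among the urea cycle genes, the 3 cytosolic steps were lower in the knockout-labelled library over all hepatocytes and the 2 mitochondrial steps were slightly higher. Ass1, the argininosuccinate synthetase, had 38892 UMIs or 1432 CPM in knockout-labelled and 54868 UMIs or 1954 CPM in wild-type-labelled hepatocytes, a ratio of 0.733 (0.723 to 0.743). Asl, the argininosuccinate lyase, stood at 408.8 and 486.8 CPM, with a ratio of 0.840 (0.819 to 0.861). Arg1, the arginase that releases urea, stood at 1003 and 1183 CPM, with a ratio of 0.848 (0.834 to 0.862). In contrast, Cps1 had a ratio of 1.07 (1.06 to 1.08), and Otc, the ornithine transcarbamylase, had 649.4 against 599.3 CPM and a ratio of 1.08 (1.06 to 1.11). Each of these differences is below 1.5-fold, and none has a replicate check. The direction also turned by cluster: in cluster 16 Asl had a ratio of 1.26 (1.21 to 1.32) and Arg1 one of 1.15 (1.12 to 1.18), and in cluster 12 Cps1 had one of 0.937 (0.923 to 0.952). The ornithine carrier Slc25a15 had a ratio of 0.889, the aspartate and glutamate carrier Slc25a13 one of 1.02, and Nags, whose product activates the Cps1 enzyme, 27.5 against 30.2 CPM with an interval that includes 1 (0.825 to 1.01).

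Mat1a, the liver methionine adenosyltransferase, was the gene with the highest ratio in the knockout-labelled library. It had 50704 UMIs or 1867 CPM in knockout-labelled hepatocytes, against 39747 UMIs or 1416 CPM in wild-type-labelled hepatocytes, a ratio of 1.32 (1.30 to 1.34). The knockout-labelled level was the higher one in 6 of 6 hepatocyte clusters, with ratios of 1.27 to 1.37, and in 5 of 5 zone ranges, with ratios of 1.27 to 1.39. Ahcy, which clears the S-adenosylhomocysteine left by methyl transfer, stood at 152.1 against 123.0 CPM, a ratio of 1.24 (1.18 to 1.30). The other methionine and cysteine genes had ratios below 1: Gnmt, a glycine methyltransferase, 0.893, Cth, the cystathionine lyase, 0.850, Cbs, the cystathionine synthase, 0.934, and Bhmt, which remakes methionine with betaine, 0.966. With the same cluster weights in both libraries, Cbs had a ratio of 1.03 and Bhmt one of 1.15, while Gnmt and Cth stayed below 1. For Bhmt the pooled ratio hides a split between clusters. In clusters 10, 11, 12 and 21 its knockout-labelled level was higher, with ratios of 1.55 to 1.72, while cluster 13 had a ratio of 0.851, and cluster 16, which holds most of its UMIs, one of 1.07.

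The 4 histidine genes all had ratios slightly above 1, at 1.09 for Hal, 1.10 for the urocanase Uroc1, 1.05 for the imidazolonepropionase Amdhd1 and 1.05 for Ftcd, which passes the formimino group to folate. All 4 tryptophan genes and all 3 tyrosine genes had ratios below 1 over all hepatocytes. In cluster 16 all 7 had ratios above 1, from 1.05 for Kynu to 1.21 for Hpd. Of these, the cluster 16 intervals of Kynu (0.952 to 1.17), Kmo (0.998 to 1.30) and Fah (0.9996 to 1.12) included 1. Tdo2, the tryptophan dioxygenase, had 783.1 CPM in knockout-labelled and 835.9 CPM in wild-type-labelled hepatocytes, and Kynu, the kynureninase, 889.2 and 945.4 CPM. The kynurenine hydroxylase Kmo had a ratio of 0.955, and Haao, the next enzyme after Kynu, one of 0.995 with an interval that includes 1 (0.965 to 1.03). Haao was above 1 both in cluster 16 (1.07) and without it (1.02). Hpd and Hgd, successive dioxygenases of tyrosine breakdown, stood at 844.6 against 902.4 CPM and 644.0 against 733.0 CPM, and Fah, the last enzyme of that path, at 296.8 against 306.8 CPM.

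Among paralogues, Sds had 425.6 CPM in knockout-labelled and 492.8 CPM in wild-type-labelled hepatocytes, a ratio of 0.864, and Sdsl had a ratio of 0.847. Of the alanine transaminases, cytosolic Gpt stood at 133.4 and 131.8 CPM with an interval that includes 1 (0.967 to 1.06), and mitochondrial Gpt2 at 366.2 and 298.1 CPM, a ratio of 1.23 (1.19 to 1.27). Got1, the cytosolic aspartate transaminase, had a ratio of 0.959. Agxt, which turns glyoxylate into glycine, had one of 0.908. With the same cluster weights in both libraries these were 1.03 for Got1 and 1.06 for Agxt. Glud1, the glutamate dehydrogenase, Aass, which opens lysine breakdown, and Prodh, the proline dehydrogenase, had ratios of 1.11, 1.12 and 1.17, and Gls2, the liver glutaminase, one of 0.912.

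**Figure D2:**
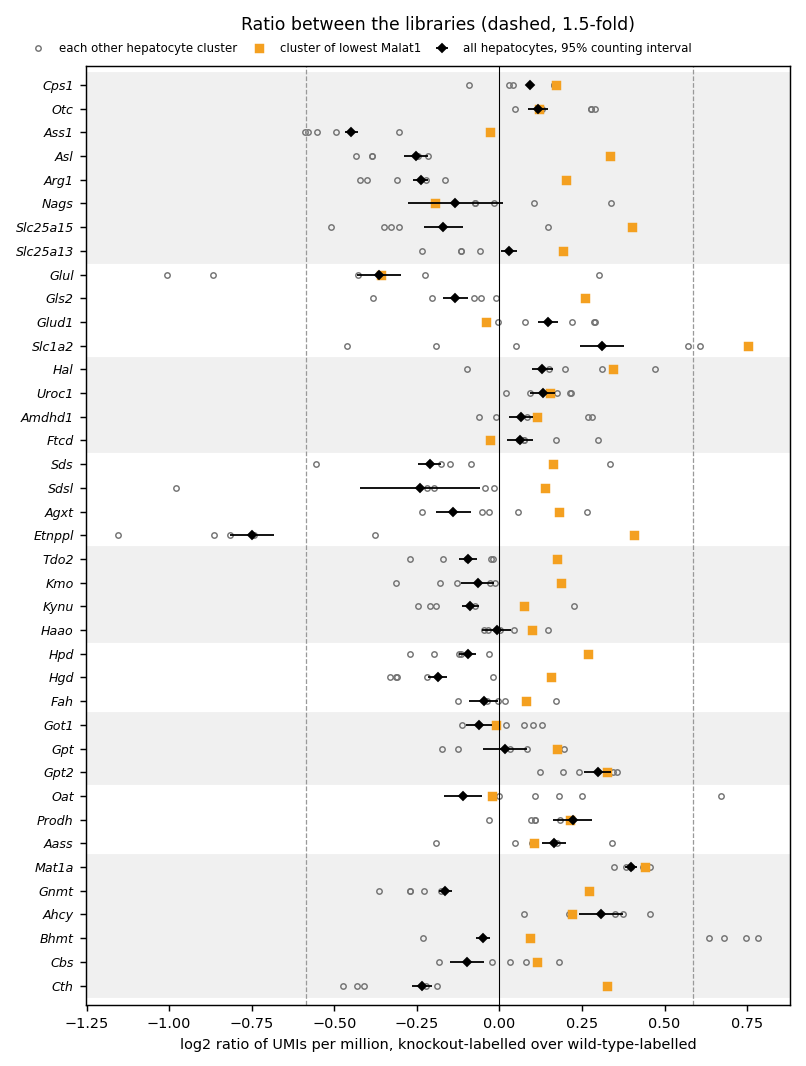
Log2 ratio of levels in the knockout-labelled over the wild-type-labelled library for each gene, over all hepatocytes (black diamonds with 95% counting intervals), in the hepatocyte cluster of lowest Malat1 (orange squares) and in each of the other 5 hepatocyte clusters (open circles). Etnppl alone passes the dashed line of 1.5-fold over all hepatocytes; its orange square lies on the other side of 0, as do those of Asl and Cth among others, while every mark of Mat1a lies above 0.

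Markers of handling differed between the libraries as well. All 18 genes of a list of dissociation and stress response genes were lower in knockout-labelled hepatocytes, with a median log2 ratio of -0.49, and their part in the ratios above was not tested. Mitochondrial transcripts made up 1.36% of hepatocyte UMIs in the knockout-labelled and 1.92% in the wild-type-labelled library. The median per cell was 0.911% in both. Cluster 13 stood out, at 6.08% and 8.51% of UMIs, and held 4.85% of knockout-labelled and 6.78% of wild-type-labelled hepatocytes. The other clusters ranged from 0.716% to 1.13%.

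In further lists of amino acid metabolism the counts of differences were near those over all measured genes. Of 66 measured genes in a list of other catabolic enzymes, 1 was at least 2-fold lower and none higher, where 1.46% of all genes differed. That gene was Tat, the tyrosine aminotransferase, which sits one step above Hpd: it had 561.5 CPM in knockout-labelled hepatocytes and 1219 CPM in wild-type-labelled hepatocytes, a ratio of 0.461 (0.452 to 0.469). Of 20 measured amino acid and ammonia transporters none passed 1.5-fold, where 5.28% of all genes did; the cationic amino acid transporter Slc7a2 stood at 1874 against 1557 CPM and the neutral amino acid transporter Slc38a4 at 830.0 against 968.1 CPM. Of 23 regulators 1 passed 1.5-fold, the transcription factor Foxa2, with 72.3 CPM in knockout-labelled and 37.1 CPM in wild-type-labelled hepatocytes, a ratio of 1.95 (1.81 to 2.11).

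To describe the lobule, hepatocytes were ordered by an index of 13 pericentral against 9 periportal marker genes, none of them among the 39, and cut into 5 ranges of nearly equal size over both libraries together. Range 1 was the most periportal and range 5 the most pericentral, with 614 and 648 knockout-labelled cells and with 632 and 598 wild-type-labelled cells. A range of this index is not a cell type, and 32.95% of hepatocytes lay within 0.1 of a cut on this index, whose SD was 0.784. A gene was called zoned when the ratio between ranges 5 and 1 was at least 2-fold the same way in both libraries.

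By that rule 15 of the 39 genes were periportal, where 2.06% of 10893 measured genes were, and 3 were pericentral, where 2.51% of measured genes were. At 1.5-fold the counts were 17 periportal, with 6.13% of all genes, and 4 pericentral, with 5.54%. Of the 39 genes, 37 had the same sign of the profile in both libraries, as did 78.5% of all measured genes. The exceptions were Cps1 and Hgd, both close to flat. With an index of 4 markers (Cyp2e1 and Cyp1a2 against Cyp2f2 and Hsd17b13) 9 genes were periportal: the calls of Ass1, Arg1, Agxt, Got1, Bhmt and Cbs were lost, and Bhmt turned to a log2 ratio of range 5 over range 1 of 0.12.

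**Figure D3:**
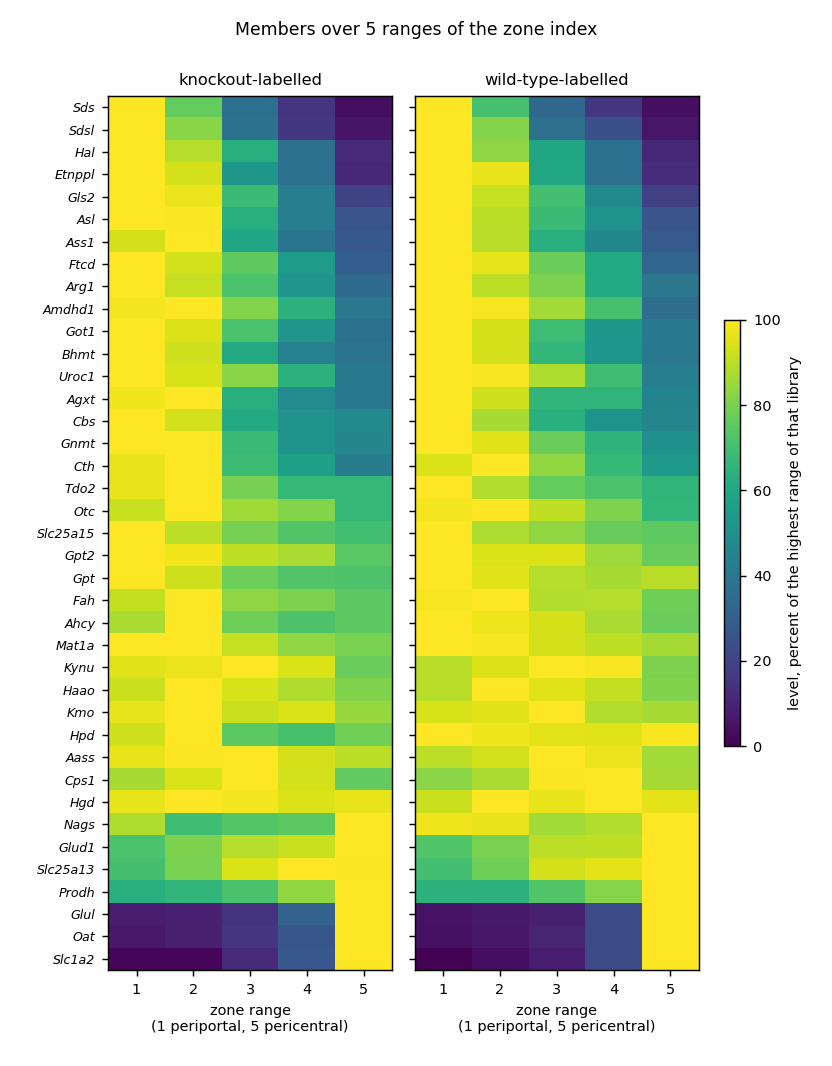
Level of each gene over 5 ranges of the zone index, as percent of its highest range in that library, in the knockout-labelled (left) and wild-type-labelled (right) library, with genes ordered by their mean log2 ratio of range 5 over range 1. Sds, Sdsl, Hal and Etnppl at the top fall toward range 5 in both libraries, and Glul, Oat and Slc1a2 at the bottom are high in range 5.

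The histidine genes and the serine, glyoxylate and phosphoethanolamine genes were all called periportal on the full index, 4 of 4 in each group; Agxt was not called on the 4-marker index or on either side of the cluster split given below. Sds was the steepest. Its levels over ranges 1 to 5 were 1080, 824.5, 393.2, 161.6 and 41.6 CPM in the knockout-labelled library and 1198, 848.6, 406.9, 189.2 and 47.9 CPM in the wild-type-labelled library, so that range 1 was 25.98-fold (22.9 to 29.6) and 25.01-fold (22.2 to 28.3) above range 5. Sdsl, its neighbour on chromosome 5 in divergent orientation with 3715 bases between the annotated genes (GRCm38), was 18.3-fold and 16.9-fold higher in range 1. Its level in range 1 was far below that of Sds, at 40.6 and 42.9 CPM. The Sdsl gradient rested on 14 and 15 UMIs in range 5, with wide intervals (10.6 to 34.2 and 9.985 to 30.75). Outside cluster 16, described below, it was 12.5-fold and 8.88-fold, against 19.0-fold and 19.1-fold for Sds. Whether the 2 gradients differ was not tested. Etnppl was 8.80-fold and 7.83-fold higher in range 1, and Agxt 2.44-fold and 2.21-fold.

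Hal had levels of 1120, 993.9, 708.4, 413.1 and 135.9 CPM over ranges 1 to 5 in the knockout-labelled library and 1011, 844.1, 592.5, 370.0 and 118.2 CPM in the wild-type-labelled library. This is an 8.24-fold (7.66 to 8.88) and an 8.55-fold (7.90 to 9.28) fall toward the central vein. The next enzymes of the histidine path had shallower gradients, at 2.48-fold and 2.33-fold for Uroc1, 2.46-fold and 2.81-fold for Amdhd1 and 3.33-fold and 3.07-fold for Ftcd. Amdhd1 lies 4033 bases beyond the end of Hal on chromosome 10, on the opposite strand.

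Within the urea cycle, the cytosolic and the mitochondrial steps again stood apart over all hepatocytes. Ass1, Asl and Arg1 were periportal: Ass1 had 2303 CPM in range 1 and 678.7 CPM in range 5 of the knockout-labelled library, and 3108 and 874.7 CPM in the wild-type-labelled library, a 3.39-fold and a 3.55-fold difference. Asl was 3.85-fold and 3.77-fold higher in range 1, and Arg1 2.87-fold and 2.51-fold. By comparison, Cps1 was nearly flat, at 4021, 4375, 4631, 4318 and 3515 CPM over ranges 1 to 5 in the knockout-labelled library and 3514, 3714, 4222, 4249 and 3684 CPM in the wild-type-labelled library. Otc was 1.37-fold and 1.49-fold higher in range 1, Slc25a15 1.43-fold and 1.33-fold. The carrier Slc25a13 leaned the other way, with range 5 above range 1 by 1.41-fold and 1.42-fold.

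Glutamine metabolism held both ends of the lobule. Gls2, which frees ammonia from glutamine, was 5.10-fold and 5.33-fold higher in range 1. Glul had 24.6, 28.9, 45.7, 98.6 and 313.1 CPM over ranges 1 to 5 in the knockout-labelled library and 24.0, 35.9, 43.2, 113.6 and 489.1 CPM in the wild-type-labelled library. Range 5 thus exceeded range 1 by 12.7-fold (10.4 to 15.7) and 20.4-fold (16.8 to 24.9). Slc1a2, which brings glutamate into the same cells, was the steepest gene of all, with 5.41 and 434.0 CPM in ranges 1 and 5 of the knockout-labelled library and 2.89 and 402.4 CPM in the wild-type-labelled library, where range 1 rested on 22 and 13 UMIs. Oat had 32.5 CPM in range 1 and 478.1 CPM in range 5 of the knockout-labelled library, and 26.7 and 606.9 CPM in the wild-type-labelled library, so 14.7-fold and 22.8-fold higher in range 5. Glud1, with 1.39-fold and 1.37-fold higher levels in range 5, and Prodh, with 1.58-fold and 1.55-fold, leaned the same way more weakly.

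The gap between the libraries in Glul was widest at the pericentral end. In range 5 the knockout-labelled level was 0.640 times (0.604 to 0.678) the wild-type-labelled level, while in range 1 the ratio was 1.02 (0.773 to 1.36). Oat in range 5 had a ratio of 0.788 (0.750 to 0.827) and Slc1a2 one of 1.08 (1.02 to 1.14), so these 3 genes did not differ alike. By hepatocyte cluster, over all ranges, Oat was above 1 in 4 and below 1 in 2, at 0.998 in cluster 13 and 0.985 in cluster 16. These 2 clusters, where Oat was highest, held 4.94% and 12.65% of knockout-labelled cells of range 5. In the wild-type-labelled library they held 8.70% and 17.06%. The markers used for the index also differed in range 5, with Cyp1a2 at 160.8 against 259.4 CPM and Cyp2e1 at 1826 against 1636 CPM in the knockout-labelled and wild-type-labelled libraries. Whether the cells of range 5 in the 2 libraries sit at the same distance from the central vein was not tested. Over the whole lobule, the genes past 1.5-fold between the libraries in either direction were 1 of 38 measured in range 1 (5.11% of all genes), 2 of 39 in range 2 (4.66%), 2 of 39 in range 3 (5.44%), 3 of 39 in range 4 (7.57%) and 2 of 38 in range 5 (5.96%).

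Tryptophan and tyrosine genes showed no zonal call, 0 of 4 and 0 of 3. Tdo2 was 1.45-fold and 1.52-fold higher in range 1, Kmo 1.14-fold and 1.08-fold, and Haao 1.13-fold and 1.10-fold. Got1 was periportal on the full index, 2.72-fold and 2.48-fold, and its fellow transaminases Gpt and Gpt2 were not called. Among the methionine and cysteine genes, Bhmt was 2.63-fold and 2.49-fold and Cbs 2.11-fold and 2.19-fold higher in range 1. Just outside the rule, Gnmt was 2.16-fold higher in range 1 of the knockout-labelled library and just short of 2-fold, with a log2 ratio of range 5 over range 1 of -0.9998, in the wild-type-labelled library, and Cth was 2.30-fold and 1.75-fold higher. Mat1a and Ahcy were not called.

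Hepatocytes fell into 6 clusters, and one of them, cluster 16, stood apart in the kind of RNA it held. Malat1, a long noncoding RNA retained in the nucleus, was at 1216 CPM there in the knockout-labelled and 1260 CPM in the wild-type-labelled library, while the other clusters ranged from 16739 to 49664 CPM. Cluster 16 held 18.6% of knockout-labelled and 22.6% of wild-type-labelled hepatocytes, with medians of 2858 and 3232 UMIs per cell. The 39 genes made up 4.42% and 3.97% of its UMIs, more than in any other hepatocyte cluster.

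Relative to the other hepatocyte clusters, 17 of the 39 genes were at least 2-fold higher in cluster 16 in both libraries, where 14.5% of 13070 measured genes were, and 7 were at least 2-fold lower, where 53.1% of genes were. Bhmt had 6171 CPM in cluster 16 and 515.9 CPM in the other clusters of the knockout-labelled library, and 5784 and 409.8 CPM in the wild-type-labelled library, a 12.0-fold and a 14.1-fold difference. Ass1 was 11.0-fold and 7.31-fold higher, and Agxt 10.8-fold and 8.60-fold. In the opposite direction, Cps1 had 1435 and 4564 CPM in the knockout-labelled and 1274 and 4415 CPM in the wild-type-labelled library, 3.18-fold and 3.47-fold lower in cluster 16. Cps1 and Ass1, both enzymes of the urea cycle, therefore differed in order: Ass1 exceeded Cps1 in cluster 16 and stood far below it elsewhere. The other genes lower in cluster 16 were Slc25a13, Kynu, Aass, Slc1a2, Gpt2 and Prodh.

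**Figure D4:**
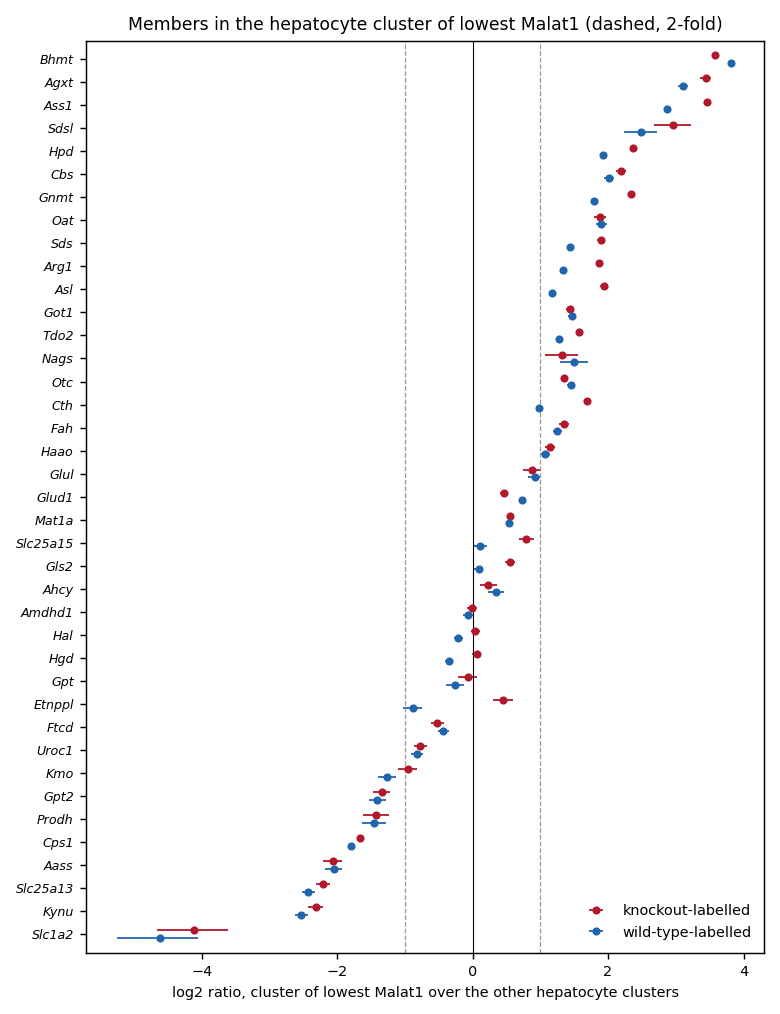
Log2 ratio of the level in the hepatocyte cluster of lowest Malat1 over the other hepatocyte clusters, with 95% counting intervals, in the knockout-labelled (red) and wild-type-labelled (blue) library. Bhmt, Agxt and Ass1 are the highest and Slc1a2, Kynu and Slc25a13 the lowest in both libraries; for Etnppl the libraries lie on opposite sides of 0.

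The genes that were lower in cluster 16 span more of the genome. Their annotated spans in GRCm38 had a median of 108.2 kb and ran from 29.9 kb for Prodh to 176 kb for Slc25a13, while the 17 higher genes had a median of 17.99 kb, from 3.505 kb for Gnmt to 68.7 kb for Otc. Across the 39 genes, Spearman's rho between span and the log2 ratio was -0.52 in the knockout-labelled and -0.53 in the wild-type-labelled library. Across 12767 measured genes with an annotated span it was -0.45 in both. The ratios of both libraries rest on the same genes and spans, and genes are not independent replicates.

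For Sds and Oat the gradients were steep on both sides of this split. Within cluster 16 alone, Sds was higher in range 1 by 72.3-fold and 92.0-fold and Oat higher in range 5 by 36.6-fold and 63.7-fold in the knockout-labelled and wild-type-labelled libraries, where range 5 rested on 13 and 11 UMIs of Sds. In the other clusters these were 19.0-fold and 19.1-fold for Sds and 13.9-fold and 18.6-fold for Oat. Slc1a2 had too few UMIs in cluster 16 for a ratio, with 8 in range 5 and 5 in range 1 of the knockout-labelled library and 9 and 3 in the wild-type-labelled library. The gradients of Bhmt, Agxt and Cbs were shallower on either side than over all hepatocytes. Within the other clusters, range 1 exceeded range 5 by 1.25-fold and 1.13-fold for Bhmt, and within cluster 16 by 1.71-fold and 1.56-fold. For Agxt these were 1.49-fold and 1.45-fold in the other clusters and 1.40-fold and 1.30-fold in cluster 16. For Cbs they were 1.68-fold and 1.66-fold in the other clusters and 1.41-fold and 1.76-fold in cluster 16. None of these 3 genes thus reached 2-fold on either side. Ass1 was shallower on either side too, at 1.70-fold and 2.01-fold in the other clusters and 2.41-fold and 2.84-fold in cluster 16. In the other clusters Arg1, at 2.10-fold and 1.975-fold, and Got1, at 2.24-fold and 1.98-fold, passed 2-fold in the knockout-labelled library only.

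The ratio between the libraries also differed between cluster 16 and the rest. In cluster 16 alone the 39 genes had a median log2 ratio of 0.17, with 7 below 0, while all measured genes had a median of 0.016 and 47.1% below 0. Without cluster 16 the median was -0.016, and 0.023 over all genes. Ass1, with 633.4 CPM in the knockout-labelled and 968.5 CPM in the wild-type-labelled library, then joined Etnppl past 1.5-fold lower at a ratio of 0.654 (0.641 to 0.668). The share of all genes past 1.5-fold without cluster 16 was not computed, so whether 2 of 39 is many or few is not known. In cluster 16 Ass1 had 6940 against 7083 CPM, a ratio of 0.980 (0.964 to 0.996). In the other 5 clusters its ratio was 0.665 to 0.810.

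Outside hepatocytes most of the 39 genes were found at a few percent of their hepatocyte level. Droplets of any cell can take up RNA released by hepatocytes, so a low percent is not read as expression. The median over the 39 genes was 3.37% of the hepatocyte level in knockout-labelled and 3.28% in wild-type-labelled endothelial cells, and 4.49% and 4.60% in Kupffer cells, which are liver macrophages. A gene was taken as above free RNA when its percent exceeded that of each of the 23 free-RNA genes in both libraries. Shares over all genes are of genes of at least 20 CPM in hepatocytes. By that rule 14 pairs of gene and cell class passed over 7 classes of at least 100 cells per library.

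Glul had a higher level in endothelial cells, Kupffer cells and the stellate class than the mean over hepatocytes, though not than pericentral hepatocytes, which had 313.1 CPM in knockout-labelled and 489.1 CPM in wild-type-labelled range 5. It had 273.2 CPM in knockout-labelled and 285.6 CPM in wild-type-labelled endothelial cells, and 294.2 and 300.1 CPM in Kupffer cells, against 114.5 and 147.5 CPM in hepatocytes. Endothelial cells with a Glul UMI made up 78.0% and 80.8%, with medians of 8784 and 9128 UMIs per cell. In B cells, where Glul did not pass, these shares were 11.6% and 12.8%, with medians of 3168 and 3356 UMIs per cell. Among endothelial clusters, the one led by Mecom and Adgrg6 had the highest level, at 533.2 and 510.7 CPM, and the one led by Vwf and Rspo3 the lowest, at 92.6 and 111.8 CPM.

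In endothelial cells 4 of 38 measured genes of the 39 were above free RNA, where 77.2% of genes measured in both classes were: Glul, Glud1, Oat and Aass. Aass stood at 203.1 CPM in knockout-labelled and 183.1 CPM in wild-type-labelled endothelial cells, 42.2% and 42.6% of its hepatocyte level. By cluster it was highest in the one led by Lyve1, Fcgr2b and Clec4g, sinusoidal endothelial genes, at 245.3 and 215.7 CPM, and lowest in the one led by Vwf and Rspo3, at 34.0 and 22.4 CPM. In Kupffer cells 1 of 37 genes passed, Glul, with 53.9% of all genes. In T cells 4 of 35 passed, Glul, Glud1, Got1 and Oat, with 80.6% of all genes. None passed in B cells, monocytes or NK and ILC1 cells, where 62.6%, 57.1% and 86% of all genes did. For monocytes the highest free-RNA percent, that of Hp, was 63.3% of the hepatocyte level in the knockout-labelled and 73.1% in the wild-type-labelled library. The medians of the free-RNA genes there were 18.4% and 19.4%. Monocyte Glud1, at 259.9 and 323.4 CPM, did not pass. For Kupffer cells the highest was that of Trf, at 50.5% and 40.0%, with medians of 14.6% and 13.7%. In both classes 1 gene set a limit far above the median, so not passing says little about expression.

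The stellate and fibroblast class needs a separate account, since one of its clusters, cluster 22, had high levels of hepatocyte genes. In its knockout-labelled cells Cps1 stood at 3746 CPM, Alb at 6197 CPM and Malat1 at 33375 CPM. In its wild-type-labelled cells these were 3603, 5657 and 37931 CPM. Such values lie within those of the hepatocyte clusters, so the class name of cluster 22 is uncertain. In the whole class the 39 genes had a median of 47.7% of the hepatocyte level in the knockout-labelled and 37.2% in the wild-type-labelled library, and 5 of 38 passed, with 85.4% of all genes. Without cluster 22, the one of highest Cps1 (left out after its values were seen), the median was 4.64% and 4.51%. This left 284 of 661 knockout-labelled and 362 of 710 wild-type-labelled cells of the class. Oat was then at 172.9 and 177.4 CPM, about its hepatocyte level, and Glul at 196.1 and 200.9 CPM. Glud1 was at 204.0 and 195.4 CPM. These 3 genes passed, 3 of 36, where 82.3% of all genes did, and Aass, at 95.5 and 89.5 CPM, and Slc1a2, at 10.04 and 9.31 CPM, no longer did.

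A second rule, added after the values were seen, compared each gene with the other members in the same class and asked for at least 3 times their median percent in both libraries. In B cells 7 of 35 genes passed (Glul, Glud1, Kmo, Kynu, Haao, Got1 and Oat), where 86.2% of all genes did, and in plasmacytoid dendritic cells 3 of 28 (Glul, Kmo and Kynu), where 82.6% did. In Kupffer cells 5 of 37 passed (Glul, Glud1, Slc1a2, Got1 and Oat), where 82.8% of all genes did, and in the stellate class without cluster 22 the same rule passed 4 of 36 (Glul, Glud1, Oat and Aass), with 89% of all genes. In B cells Kmo had 81.2 CPM in the knockout-labelled and 95.8 CPM in the wild-type-labelled library, Kynu 205.7 and 193.3 CPM, and Haao 84.1 and 71.2 CPM. By contrast, T cells had 9.57 and 7.45 CPM of Kmo and 18.2 and 22.8 CPM of Kynu. In plasmacytoid dendritic cells, 83 knockout-labelled and 112 wild-type-labelled cells, Kmo reached 241.5 and 251.7 CPM, 105% and 104.5% of its hepatocyte level, and Kynu 460.0 and 369.5 CPM, and both genes and Glul passed the first rule there too, where 84.2% of all genes did. A Kmo UMI was found in 78.3% and 75.0% of these cells, against 5.38% and 5.08% of endothelial cells. Median depths were 7399 and 7452 UMIs in plasmacytoid dendritic cells.

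**Figure D5:**
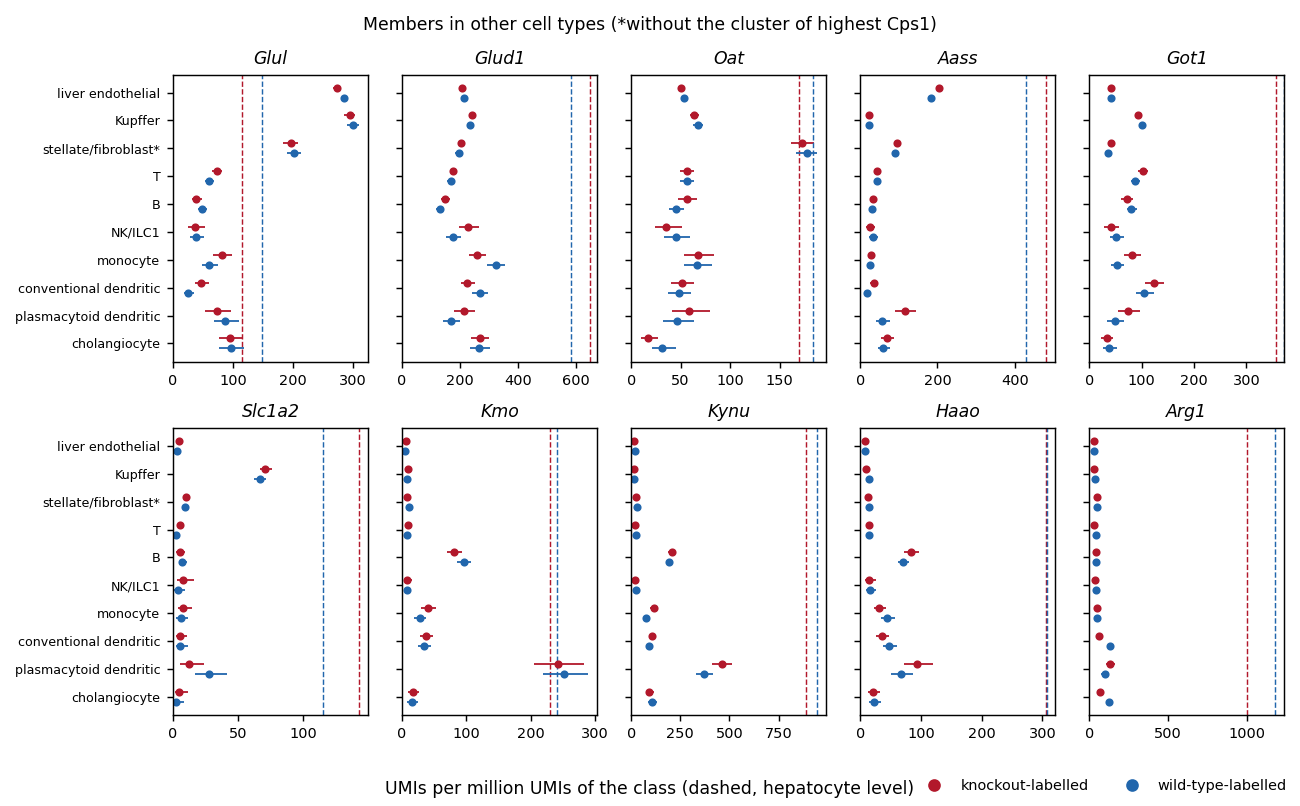
Levels of 10 of the genes in other cell classes, in CPM of the class with exact 95% counting intervals, in the knockout-labelled (red) and wild-type-labelled (blue) library; dashed lines are the hepatocyte levels and the stellate class is shown without cluster 22. Glul in endothelial and Kupffer cells lies to the right of its hepatocyte lines, Kmo in plasmacytoid dendritic cells lies on them, and Arg1 is low in every class shown.

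Slc1a2 in Kupffer cells stood at 70.8 CPM in the knockout-labelled and 66.8 CPM in the wild-type-labelled library, against 4.27 and 3.02 CPM in endothelial cells. Its level there passed the second rule but not the first, whose limit in Kupffer cells was set by Trf. In Kupffer cluster 1, Slc1a2 stood at 71.1 and 68.7 CPM and Alb at 1626 and 1705 CPM. In endothelial cluster 3, Slc1a2 stood at 4.41 and 2.84 CPM and Alb at 1969 and 1949 CPM. A Slc1a2 UMI was found in 35.9% and 33.7% of Kupffer cells. Whether these counts come from free RNA was not tested. Cholangiocytes, the bile duct cells, numbered 66 and 52. Sdsl stood there at 24.2 CPM (15.7 to 35.8) from 25 UMIs in the knockout-labelled and 36.1 CPM (24.7 to 51.0) from 32 UMIs in the wild-type-labelled library, against means of 16.7 and 19.7 CPM over all hepatocytes and 40.6 and 42.9 CPM in range 1. Sdsl passed the second rule, as did Glul, Glud1, Gpt2, at 154.0 and 169.2 CPM, and Cbs, at 74.6 and 98.2 CPM; of the 28 members of at least 20 CPM in hepatocytes 4 passed, where 88% of all genes did. In conventional dendritic cells Glud1, Got1 and Oat passed both rules, 3 of 30, where 86.4% of all genes passed the first and 86.9% the second. Of the enzymes of the urea cycle itself, none passed either rule in the 11 other classes to which the rules were applied. In some classes the first rule left little room to pass. The highest free-RNA percent was 226.6% of the hepatocyte level in knockout-labelled and 260% in wild-type-labelled neutrophils. For cholangiocytes it was 316.6% and 261.4%. Not passing the first rule there says little about expression. Mesothelial cells, 48 and 38 in number, were too few and were left out.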

How the data were processed

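Single-cell RNA counts of 1 liver library per genotype label were used. Per the labels' protocols, libraries were made with a Chromium single-cell 3′ kit; per the file headers, the counts of unique molecular identifiers were made with Cell Ranger 8.0.1, and the submitters' processing notes also name STAR and the build mm10. The deposited counts are whole numbers per gene and barcode, with 103478998 UMIs in the knockout-labelled and 105556354 UMIs in the wild-type-labelled library. How strand and introns were handled in the counting is not given in these sources.

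Cells with at least 500 UMIs, at least 300 genes and at most 20% mitochondrial UMIs were kept, and doublets called by Scrublet were removed (354 knockout-labelled and 429 wild-type-labelled cells). Cells were clustered with scanpy 1.11.5 (2000 variable genes without the 39 genes, 30 components, 15 neighbours, Leiden resolution 1) and named from marker lists. UMIs were summed per class and library. A gene differed when it had at least 50 summed UMIs, a ratio of at least 2 (or 1.5, where stated) and an exact 95% interval without 1; the intervals cover counting error only. Genes at 0 were limited by a floor of 3 counts. On simulated counts for the hepatocyte comparison, run on 33696 genes, 99% of 200 genes changed 2.5-fold were recovered, and 11 of 14602 unchanged genes were called. The simulated counts held counting error alone. They do not give the rate of false calls between 2 real libraries, which also differ in cells, preparation and animals. Named genes are the 39 and, from the further lists of amino acid metabolism, those that passed a call. Slc7a2 and Slc38a4, the transporters with the most UMIs in their list, are also named. Marker genes are named where they are used. The genes and lists were chosen with earlier results of these data known. Protein sequences of paralogues were not used here. Promoters are from RefSeq and spans from the GENCODE annotation of GRCm38. Analyses used python 3.11.15, scipy 1.17.1 and pandas 2.3.3. A result on 1 gene of another list is not reported here.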

Additional observations from a re-analysis of the deposited data

Results flagged for a closer look

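The ratio of the knockout-labelled over the wild-type-labelled library ran in opposite directions in the hepatocyte cluster of lowest Malat1 and in the other hepatocyte clusters for 5 genes, each by at least 1.2-fold and with counting intervals that left out 1. The difference between the clusters was not tested, and the choice of this cluster followed its values. The share of all genes meeting this rule was not computed, so whether 5 is many or few is not known. Asl had a ratio of 1.262 (1.21 to 1.32) in the cluster of lowest Malat1 and 0.744 (0.721 to 0.767) in the others. Slc25a15 had 1.322 and 0.824. Etnppl had 1.325 (1.16 to 1.51) and 0.527 (0.501 to 0.554). Gnmt had 1.207 (1.18 to 1.23) and 0.822, and Cth had 1.252 (1.21 to 1.30) and 0.768.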

How the results depend on the processing

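No paired analysis was possible because each genotype label has 1 library. Over 14 alternatives the median log2 ratio of the 39 genes ran from -0.11 to 0.17, against -0.066 as reported. It was -0.016 without the hepatocyte cluster of lowest Malat1, 0.172 in that cluster alone and 0.0279 with equal weights for the hepatocyte clusters, all 3 chosen after seeing the data. No gene was called higher under any of the 14, but the sign of the ratio was the same under every alternative for only 13 of the 39 genes. A ratio of 1.5 called 1 gene lower and 1 regulator higher, against 0 at 2-fold. Etnppl reversed in the cluster of lowest Malat1 alone, with a log2 ratio of 0.41. With an index of Cyp2e1 and Cyp1a2 against Cyp2f2 and Hsd17b13, 9 genes were periportal instead of 15. The share of all genes called on that index was not computed. Bhmt reversed there to a log2 ratio of range 5 over range 1 of 0.12, and the cause was not tested. Pairs of gene and cell class above free RNA numbered 14, against 3 at 2 times the highest free-RNA percent and 27 by the rule on the members' median, chosen after seeing the data. Depth limits the low genes: Sdsl and Nags had the fewest UMIs.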
